A study of Mus musculus with 4 samples.

Results

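The 10 genes described here belong to the choroid plexus and were followed in the embryonic mouse telencephalon with and without CTCF, a zinc finger DNA-binding protein that anchors chromatin loops. They are Ttr, Otx2, Folr1, Kcnj13, Clic6, Aqp1, Lmx1a, Foxj1, Enpp2 and Kl. The genes were taken by symbol as a list of the plexus epithelium and the roof plate it comes from, and all 10 were found among the 48795 genes of the table. All 10 also passed the filter on low values that left 21865 genes for testing. RNA came from the telencephalon, the front part of the embryonic brain, of C57BL/6 mice at embryonic day 14, with 4 libraries in 2 numbered pairs. The 2 control libraries carried a floxed Ctcf gene, in which loxP sites flank the part to be removed. The 2 Ctcf-null libraries carried the floxed gene together with NestinCre, a recombinase driven by Nestin sequences, which are active in neural progenitors. All 4 therefore shared the floxed gene, and no library with the recombinase alone is among them. Nothing in the labels says whether a library came from 1 embryo or from several. A p-value from a fit within pairs reflects how far the differences of the 2 pairs lie apart. Its variance is drawn largely from other genes, and that spread may be technical.

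The choroid plexus is a folded secretory tissue in the brain ventricles that makes cerebrospinal fluid. Its epithelium arises from the dorsal midline of the neural tube, the roof plate, next to the cortical hem, and signals of the BMP and WNT families help to specify it. The finished cells make large amounts of transthyretin, move ions and water, and carry tufts of cilia.

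Libraries held 25519331 to 43812558 reads, as recovered from the values. The 10 most abundant genes took 21.9% to 26.0% of the reads in pair 1 and 8.37% to 8.82% in pair 2, so the pairs differed in make-up more than the genotypes did. The Ctcf transcript fell from 437 to 38.9 normalized counts in pair 1 and from 1133 to 62.0 in pair 2. Genotypes were therefore compared within pairs, with limma on log2(normalized count + 1), and "rose" and "fell" below mean an adjusted p under 0.05 in that fit. Some markers of the dissected region were read. Emx1, a factor of the dorsal telencephalon, had 134 (control) and 96.9 (Ctcf-null) normalized counts in pair 1, and 2269 and 1293 in pair 2. The 7 Hox genes of the hindbrain summed to 8.75 to 27.6, and none of them passed the filter on low values. The share of other forebrain tissue in each library was not measured.

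In Ctcf-null telencephalon, 3 of the 10 plexus genes rose and 0 fell, and the other 7 did not pass. At an unadjusted limma p under 0.05, 4 were higher and 0 lower, against 7.81% and 19.5% of all genes tested. DESeq2 with the pair as a block called 1 higher and 0 lower, against 1.55% and 3.96% of the 16887 genes to which it gave an adjusted p, and edgeR called 3 higher and 0 lower. The genes that rose were Ttr, the plexus carrier of thyroid hormone, at 1.38-fold, Otx2, a homeodomain factor needed for plexus development, at 1.39-fold, and Enpp2, which encodes the secreted enzyme autotaxin, at 1.20-fold. Kcnj13, Lmx1a, Folr1 and Aqp1 were also above their control in both pairs, without passing. Foxj1, the master factor of motile cilia, was below its control in both pairs, also without passing.

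Across all 21865 genes tested, 3.69% rose and 10.1% fell, 13.8% in all, against 3 of 10 and 0 of 10 for the plexus genes. The 10 were chosen with earlier results of these data known, so these shares are a description. In edgeR with the block the same 3 genes passed, where 4.8% of all genes were called higher and 11.9% were called in either direction. The median log2 difference was 0.25 over the 10 genes and -0.07 over all genes. By pair, the 10 genes had medians of 0.30 and 0.24, and all genes had -0.06 and -0.08. Of the 10, 7 were higher in Ctcf-null in both pairs, against 24.5% of all genes, and 1 was lower in both, against 43.1%. Both Ctcf-null libraries lay above both controls for 3 genes (Otx2, Folr1 and Kcnj13), against 6.45% of all genes, and for 0 genes below both, against 7.67%. Scaling moved the median of all genes from -0.07 with the authors' size factors to -0.02 with TMM factors and 0.04 with upper-quartile factors, and genes that rose made up 26.7%, 41.3% and 57.8% of the calls. The same 3 plexus genes passed under all 3 scalings (4.61% of all genes were called higher with TMM factors), and each of the 10 kept its sign. Without the block of pairs none of the 10 passed in limma or in edgeR, and none had an unadjusted p under 0.05 in either. In bulk tissue, more cells of the plexus and more RNA per plexus cell cannot be told apart, and the amount of plexus taken with each telencephalon was not measured.

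**Figure D1:**
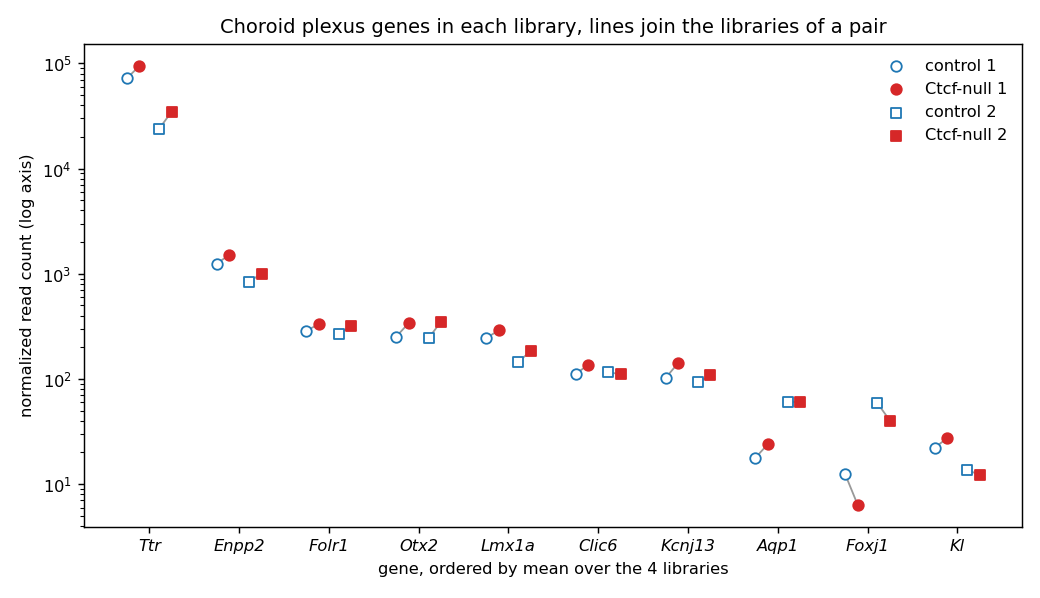
Normalized read counts (log axis) of the 10 genes in the 4 libraries, with open symbols for controls, filled symbols for Ctcf-null, circles for pair 1 and squares for pair 2. Ttr lies far above the others. The step between pairs is larger than the step between genotypes for Ttr, Enpp2, Lmx1a, Aqp1, Foxj1 and Kl, and about as large for Clic6.

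**Figure D2:**
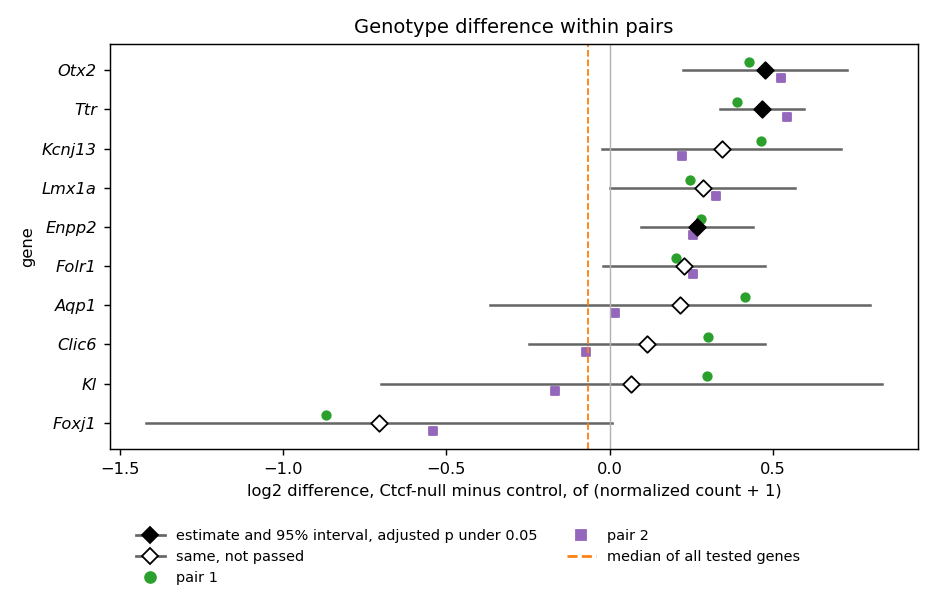
Log2 difference between Ctcf-null and control for each gene, with the estimate and its 95% interval (diamonds, filled where adjusted p was under 0.05), the difference in pair 1 (circles) and in pair 2 (squares). The estimate of Foxj1 lies left of the median of all tested genes at -0.07, and the other 9 lie right of it.

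Secreted products come first. Ttr (ENSMUSG00000061808.3, chromosome 18, 20665280 to 20674321, plus strand) had 72063 normalized counts in control 1 and 94452 in Ctcf-null 1, and 23920.0 in control 2 and 34808 in Ctcf-null 2. The groups overlapped, because both libraries of pair 1 lay above both libraries of pair 2. Within each pair the Ctcf-null library was the higher one, by 0.39 and 0.54 on the log2 scale. The estimate was 0.47 (SE 0.06, 95% interval 0.34 to 0.60, limma adjusted p = 3.4e-05, n = 2 pairs). It rested on 19124 to 133575 reads per library, and Ttr passed in DESeq2 with the block too (adjusted p = 6.3e-05).

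Enpp2 (chromosome 15, 54838901 to 54952892, minus strand) encodes autotaxin, which makes the signalling lipid lysophosphatidic acid. It had 1245 normalized counts in control 1 and 1510.4 in Ctcf-null 1, and 841 in control 2 and 1002 in Ctcf-null 2. As for Ttr, pair 1 was the higher one, the groups overlapped, and the Ctcf-null library was higher in each pair. The differences of the pairs were close, 0.28 and 0.25, with an estimate of 0.27 (SE 0.08, limma adjusted p = 0.036). DESeq2 with the block did not call Enpp2 (adjusted p = 0.32).

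Kl encodes klotho, a co-receptor for FGF23 that is also shed into fluid (chromosome 5, 150952607 to 150993817, plus strand). It was the scarcest of the 10 by mean, with 22.2 normalized counts in control 1, 27.6 in Ctcf-null 1, 13.8 in control 2 and 12.15 in Ctcf-null 2, or 10 to 39 reads per library. Its pairs went opposite ways, 0.30 and -0.17. The estimate of 0.07 had a 95% interval from -0.70 to 0.83 (limma adjusted p = 0.94), so a change of the size seen for Ttr was not detectable at this depth.

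Carriers and channels of the epithelium were next, and none of the 4 passed. Folr1, the folate receptor through which the plexus moves folate into the fluid (chromosome 7, 101858331 to 101870788, minus strand), had 288 and 268 normalized counts in controls 1 and 2. It had 332 and 319.5 in Ctcf-null 1 and 2, both above both controls. The estimate was 0.23 (95% interval -0.02 to 0.48, limma adjusted p = 0.23), with 0.20 and 0.25 in the pairs. Kcnj13 encodes the inward rectifier potassium channel Kir7.1 (chromosome 1, 87386363 to 87394729, minus strand). The controls had 102 and 92.6 normalized counts, and the Ctcf-null libraries 141 and 108, again without overlap. Its estimate was 0.34 (95% interval -0.02 to 0.71, limma adjusted p = 0.22), and it was 0.15 without Ctcf-null 1 and 0.53 without Ctcf-null 2, fitted without the block. Kcnj13 lies within Gigyf2 on the opposite strand, which had 1189 to 1311 normalized counts, and Folr1 overlaps Anapc15 on the opposite strand, at 464 to 619. Reads in those overlaps cannot be told apart without strand.

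Clic6, a chloride intracellular channel gene of secretory epithelia (chromosome 16, 92485736 to 92541243, plus strand), was nearly level. Pair 1 had 111 normalized counts in the control and 137 in the Ctcf-null library, and pair 2 had 116 and 111, so the groups overlapped. The difference was 0.30 in pair 1 and -0.07 in pair 2, with an estimate of 0.11 (95% interval -0.25 to 0.48, limma adjusted p = 0.73). The overlapping transcript 2410124H12Rik, on the same strand, had 10.6 to 22.5 normalized counts. Aqp1, the water channel of the apical plexus membrane (chromosome 6, 55336432 to 55348555, plus strand), went with the pairs. The libraries of pair 1 had 17.8 (control) and 24.0 (Ctcf-null) normalized counts, and those of pair 2 had 60.0 and 60.7. The estimate was 0.22 (95% interval -0.37 to 0.80, limma adjusted p = 0.67). Red blood cells and some vessels express Aqp1 as well. Of 10 genes of the erythroid list 0 rose and 0 fell, with a median of -0.23 and pair medians of -0.59 and 0.15, and their part in the Aqp1 values was not tested.

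Of the transcription factors, Otx2 (ENSMUSG00000021848.15, chromosome 14, 48657677 to 48673819, minus strand) rose. Its 2 controls had 253 and 244 normalized counts, and its Ctcf-null libraries had 340.1 and 351. The controls lay close together, and both Ctcf-null libraries were above both. The estimate was 0.48 (SE 0.12, 95% interval 0.22 to 0.73, limma adjusted p = 0.012), with 0.43 and 0.52 in the pairs. DESeq2 with the block gave the same estimate without a call (adjusted p = 0.24). Otx2os1, the transcript on the opposite strand, overlaps Otx2 and went from 37.4 to 51.6 normalized counts in pair 1 and from 21.3 to 42.5 in pair 2. Reads of the pair cannot be told apart, since the labels give no strand, but Otx2os1 was listed at far lower levels than Otx2.

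The stretches before the annotated starts of Otx2 and Kcnj13 are shown because these were the members with an entry in the RefSeq promoter table whose Ctcf-null libraries both lay above both controls. Each is the 250 bases before a start on GRCm38.p6, written 5′ to 3′ along the gene, at chr14:48667645-48667894 for Otx2 and chr1:87394730-87394979 for Kcnj13, both on the minus strand. Capitals mark any match to 1 of 4 motifs.
Otx2: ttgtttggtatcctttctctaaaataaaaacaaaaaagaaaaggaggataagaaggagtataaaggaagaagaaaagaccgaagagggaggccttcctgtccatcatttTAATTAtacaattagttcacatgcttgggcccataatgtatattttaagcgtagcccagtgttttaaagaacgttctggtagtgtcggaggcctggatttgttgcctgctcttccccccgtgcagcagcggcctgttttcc
Kcnj13: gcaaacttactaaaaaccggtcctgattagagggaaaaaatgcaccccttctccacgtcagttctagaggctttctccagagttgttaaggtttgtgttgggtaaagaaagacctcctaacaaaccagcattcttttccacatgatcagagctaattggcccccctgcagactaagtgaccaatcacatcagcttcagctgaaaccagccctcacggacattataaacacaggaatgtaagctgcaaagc
The motifs were searched on both strands. They were TAATCC, a core bound by OTX factors, TAATTA, a core bound by LIM homeodomain factors, TGTTTAC, a forkhead core, and the core of the CTCF motif. TAATCC and TAATTA share their first 4 letters, and TAATTA reads the same on both strands. Among 32851 such windows of the RefSeq table, 6.25%, 4.84%, 3.17% and 2.07% held them. The Otx2 window above holds 1 TAATTA, from 141 to 136 bases before the start, and the Kcnj13 window holds none of the 4 motifs. The table held 8 windows for 5 of the 10 genes, 4 of them of Otx2. Another Otx2 window held 1 match to TAATCC, read on the opposite strand, and 3 to TAATTA. No match was found in the windows of Lmx1a, Kl and Aqp1. Ttr, Folr1, Clic6, Foxj1 and Enpp2 had no entry in the table.

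Lmx1a (chromosome 1, 167689237 to 167848741, plus strand) encodes a LIM homeodomain factor that specifies the roof plate and marks the cortical hem. It had 244 normalized counts in control 1 and 289 in Ctcf-null 1, and 146 and 183 in the same order in pair 2. Pair 1 was higher, and the Ctcf-null library was higher in each pair, by 0.25 and 0.32. The estimate of 0.29 had an unadjusted p of 0.048 and did not pass (95% interval 0.00 to 0.57, limma adjusted p = 0.18).

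Its paralog Lmx1b, a factor of the midbrain roof plate and of dopamine and serotonin neurons, differed far more (chromosome 2, 33560965 to 33640511). Lmx1b is not among the 10 and was in the roof plate list. It had 0 reads in control 1 and 1 read in control 2, against 53 in Ctcf-null 1 and 56 in Ctcf-null 2. That is 1 read against 109, a ratio of 108 per read sequenced, with an exact 95% interval from 19.0 to 4318 that covers counting error only. Lmx1b rose in limma (adjusted p = 7.7e-07) and in edgeR with the block (adjusted p = 2.9e-08). At 37.5 and 68.0 normalized counts, Lmx1b in the Ctcf-null libraries was still listed below Lmx1a.

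Foxj1 drives the genes of motile cilia (chromosome 11, 116330704 to 116335399, minus strand). It had 12.45 normalized counts in control 1 and 6.36 in Ctcf-null 1, and 58.8 in control 2 and 40.1 in Ctcf-null 2. Its values were lower in Ctcf-null by 0.87 and 0.54 within the pairs, on 9 to 47 reads per library. The estimate of -0.71 did not pass (95% interval -1.42 to 0.01, limma adjusted p = 0.19).

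Per kilobase of exon, which allows levels of different genes to be compared, Ttr stood at a mean of 47480 normalized counts over the 4 libraries, the 99.8th percentile of the tested genes. Enpp2 followed at 199 and Folr1 at 131, then Kcnj13 at 87.5, Otx2 at 70.3 and Lmx1a at 63.5. Clic6 stood at 30.4, Aqp1 at 15.5, Foxj1 at 11.2 and Kl at 2.03. The ranges over libraries overlapped between Kcnj13 and Otx2, Otx2 and Lmx1a, Aqp1 and Foxj1, and Foxj1 and Kl. Within each of the 4 libraries Kcnj13 stood above Otx2 and Aqp1 above Foxj1, though closely in some (22.9 and 22.4 for Aqp1 and Foxj1 in control 2). The order of Otx2 and Lmx1a, and of Foxj1 and Kl, changed between libraries and is not set. The other neighbours did not overlap, although Enpp2, from 145 upward, and Folr1, up to 144, came close.

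The other epithelial genes were then read from a list of 23, all of which were tested. Of these 4 rose and 2 fell, with a median log2 difference of 0.22 against -0.07 for all genes. In both pairs 13 of them were higher and 4 lower. With the pair as a block, edgeR called 3 higher and 2 lower, and DESeq2 called 0 in either direction. At an unadjusted limma p under 0.05, 8 of the 23 were higher and 2 lower, against 7.81% and 19.5% of all genes tested. Krt18, a keratin of simple epithelia, went from 49.8 to 75.7 normalized counts in pair 1 and from 166 to 296 in pair 2 (log2 difference 0.71, SE 0.17, limma adjusted p = 0.0083). Sostdc1, a secreted inhibitor of BMP and WNT signalling, went from 433 to 482 and from 314 to 604, with pair differences of 0.15 and 0.94 (limma adjusted p = 0.012). Htr2c, the serotonin receptor abundant in plexus, rose by 0.65 (SE 0.19), from 91.6 to 148 in pair 1 and from 53.8 to 82.6 in pair 2. F5, coagulation factor V, was just under the threshold (limma adjusted p = 0.0497) and did not pass in edgeR with the block (adjusted p = 0.080). It had 3.75 normalized counts in control 2.

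The 2 that fell were Wfdc2, a secreted protease inhibitor-like protein, and Igfbp2, a binding protein for insulin-like growth factors. Wfdc2 fell from 58.7 to 31.1 normalized counts in pair 1 and from 133 to 88.7 in pair 2. Igfbp2 fell from 3398 to 1766 in pair 2 and was level in pair 1, at 259.7 and 254. With upper-quartile factors neither passed (limma adjusted p = 0.064 for both) and 6 genes of the list rose. Igfbp2 is also made by neural progenitors and meninges, and the source of its reads was not tested.

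Of 16 tested genes of the roof plate and cortical hem, out of 17 listed, 3 rose and 1 fell, with a median of 0.11 and pair medians of 0.22 and -0.04. In both pairs 5 were higher and 2 lower. DESeq2 with the block called 1 higher (Lmx1b) and 1 lower (Rspo3), and did not call Bmp7 (adjusted p = 0.18) or Wnt5a (adjusted p = 0.23). Besides Lmx1b, Bmp7, a BMP ligand of the dorsal midline, went from 228 to 322 normalized counts in pair 1 and from 458 to 609 in pair 2 (log2 difference 0.46, SE 0.11, limma adjusted p = 0.0089). Wnt5a, a non-canonical WNT ligand expressed in the hem, went from 355 to 506 and from 409 to 507 (log2 difference 0.41, limma adjusted p = 0.015). Rspo3, a secreted enhancer of WNT signalling, fell by 0.61 on the log2 scale (SE 0.13), from 178 to 143 normalized counts in pair 1 and from 1492 to 795 in pair 2. Gdf7, a classical roof plate ligand, had 0 to 2.12 normalized counts and was not tested.

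Foxj1 was set beside 27 tested genes of multiciliated cells, out of 31 listed. Of the 27, 2 rose and 1 fell, with a median of 0.16, and 17 were higher in both pairs. DESeq2 with the block called 0 higher and 1 lower (Tekt2), with adjusted p = 0.058 for Mlf1 and 0.35 for Hydin. Tekt2, a tektin of the ciliary axoneme, went from 206 to 99.7 normalized counts in pair 1 and from 229 to 106 in pair 2, with both Ctcf-null libraries below both controls (log2 difference -1.07, SE 0.15, limma adjusted p = 7.3e-05). Mlf1, listed here as a gene of ciliated cells, rose by 0.50 (SE 0.10), and Hydin, a protein of the central pair of motile cilia, by 0.75 (SE 0.20). Most of the list thus lay on the other side of 0 from Foxj1.

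**Figure D3:**
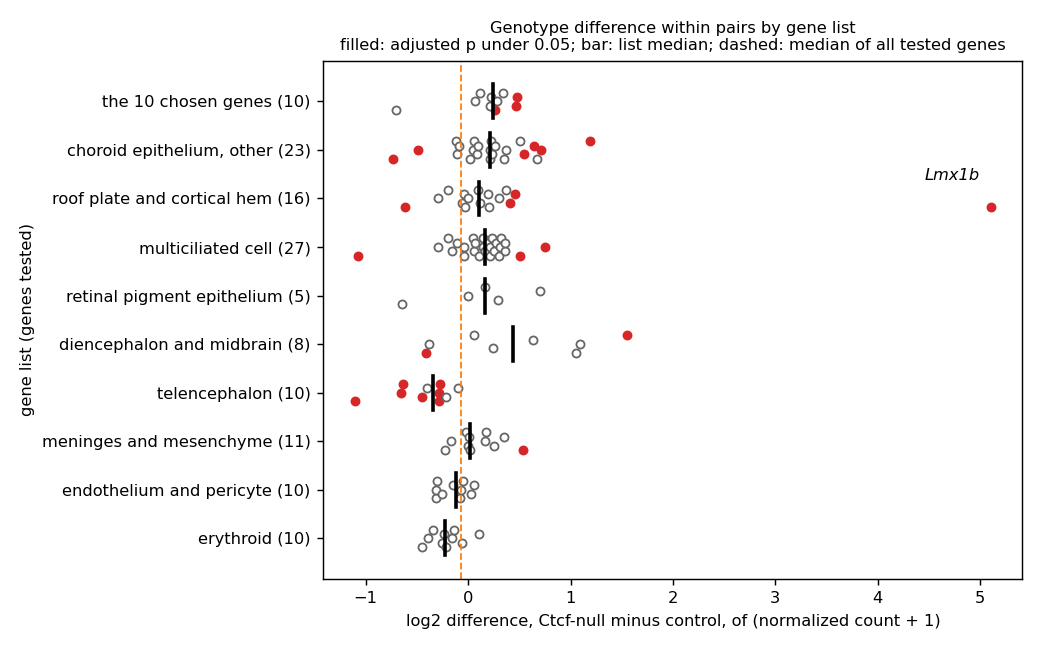
Log2 difference between Ctcf-null and control within pairs for each tested gene of the 10 chosen genes and of 9 other lists (filled points had an adjusted p under 0.05, black bars are list medians, the dashed line is the median of all tested genes at -0.07). The lists of plexus, roof plate and cilia genes have medians from 0.11 to 0.25. The diencephalon and midbrain list has the highest in this fit, 0.44, and was above the 10 genes with TMM and upper-quartile factors too. In edgeR with the block it had 0.23, against 0.30 for the 10 genes. The pigment epithelium list has 0.16 and the telencephalon list -0.35, and Lmx1b lies far to the right.

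Markers of other tissue that the dissection could hold were read in the same fit. Several plexus genes, among them Ttr, Otx2, Kcnj13 and Enpp2, are also made by the pigment epithelium of the eye. Of 9 genes of that list 5 were tested and 0 passed in limma, edgeR or DESeq2, with 2 higher and 0 lower at an unadjusted limma p under 0.05 and 1 call with upper-quartile factors, with a summed level of 1604 to 3629.8 normalized counts in controls, against 1714 to 4263 with the deletion. Nearly all of these sums came from Rlbp1, at 1425 to 4117, which radial glia also express, and Mitf was at 56.3 to 96.9. The defining enzyme genes Rpe65 and Tyr were at 1.21 to 4.24 and 1.21 to 3.75.

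Otx2 and Lmx1a are also genes of the diencephalon and midbrain. In that list, 8 of 17 genes were tested, 1 rose and 1 fell, and the median was 0.44, with pair medians of 0.14 and 0.43. In limma with the authors', TMM and upper-quartile factors the list had medians of 0.44, 0.48 and 0.52. The 10 plexus genes had 0.25, 0.30 and 0.35 in the same order. In edgeR with the block the median of the list was 0.23, against 0.30 for the 10 plexus genes. With TMM or upper-quartile factors 3 rose, in edgeR with the block 2 rose, and in DESeq2 0 were called, against 4 higher and 1 lower at an unadjusted limma p under 0.05. Lhx9, a LIM homeodomain factor, fell by 0.41 on the log2 scale, and with upper-quartile factors it did not pass (limma adjusted p = 0.11). The summed level of the list was 1475 to 1567 in controls, against 1452 to 1687 with the deletion, while the midbrain genes En1 and En2 and the floor plate gene Foxa2 were at 0 to 2.83. The part of such tissue in the Otx2 and Lmx1a values was not tested.

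Among 11 genes of meninges and mesenchyme, which border and fill the plexus, Pdgfra rose by 0.53 (SE 0.12) and 0 fell, with a median of 0.01. In edgeR with the block 2 rose, with upper-quartile factors 3 rose, and in DESeq2 0 were called (adjusted p = 0.13 for Pdgfra), against 3 higher and 0 lower at an unadjusted limma p under 0.05. Summed levels were 4662 to 9191 in controls, against 4869.9 to 9958 with the deletion. Of 10 endothelial and pericyte genes 0 rose and 0 fell in limma, edgeR or DESeq2, with 4 lower at an unadjusted limma p under 0.05 and a median of -0.12, led by Cldn5 at 77.8 to 2484 and Rgs5 at 569.9 to 724. The erythroid list, led by Hba-a1 and Hba-a2, near-identical copies whose reads may be split, had 0 calls in limma, edgeR or DESeq2, with 3 lower at an unadjusted limma p under 0.05. Of 10 telencephalon genes 7 fell and 0 rose, with a median of -0.35, and 5 fell with TMM factors, 4 with upper-quartile factors and 3 in DESeq2. Lhx2, a selector of cortical fate against hem, fell by 0.65 on the log2 scale (SE 0.08), Emx1 by 0.64 and Dlx1 by 0.45. Dlx2 fell by 1.10 (SE 0.19), with pair differences of -0.41 and -1.80, and DESeq2 with the block did not call it (adjusted p = 0.45). The share of plexus in each dissected sample was not measured, and its part in the higher Ttr, Otx2 and Enpp2 was not tested.

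Several of the 10 genes differed more between the pairs than between the genotypes. In the same fit, 6 of 10 passed for pair 2 against pair 1, against 73.7% of all genes. Ttr, Lmx1a, Enpp2 and Kl were lower in pair 2, against 32.0% of all genes, and Aqp1 and Foxj1 higher, against 41.7%. Ttr was lower by 1.52 on the log2 scale (pair 2 minus pair 1, -1.52), and Foxj1 was higher by 2.32 and Aqp1 by 1.5. Otx2 was level between pairs, at 0.00 (limma adjusted p = 0.99), as was Folr1, at -0.08 (limma adjusted p = 0.55). Called or not, 8 of the 10 were lower in pair 2, with a median pair difference of -0.19 against 0.10 over all genes. Aqp1 and Foxj1 were higher, so the 10 genes did not all shift in 1 direction between pairs.

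Base composition moved with that pair difference across the 21731 genes with a transcript sequence. In 4 bins of equal size by GC content, from low to high, the median pair difference was -0.28, -0.13, 0.07 and 0.97, and Spearman's rho across genes, which share the 4 libraries, was 0.35. Foxj1 and Aqp1, with 61.4% and 54.9% GC in their longest transcripts, were in the highest bin and higher in pair 2. Folr1, at 54.4%, was in that bin too and was level. For the genotype difference, the medians in the same bins were -0.01, -0.05, -0.09 and -0.12. Its part in the plexus values was not tested.

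**Figure D4:**
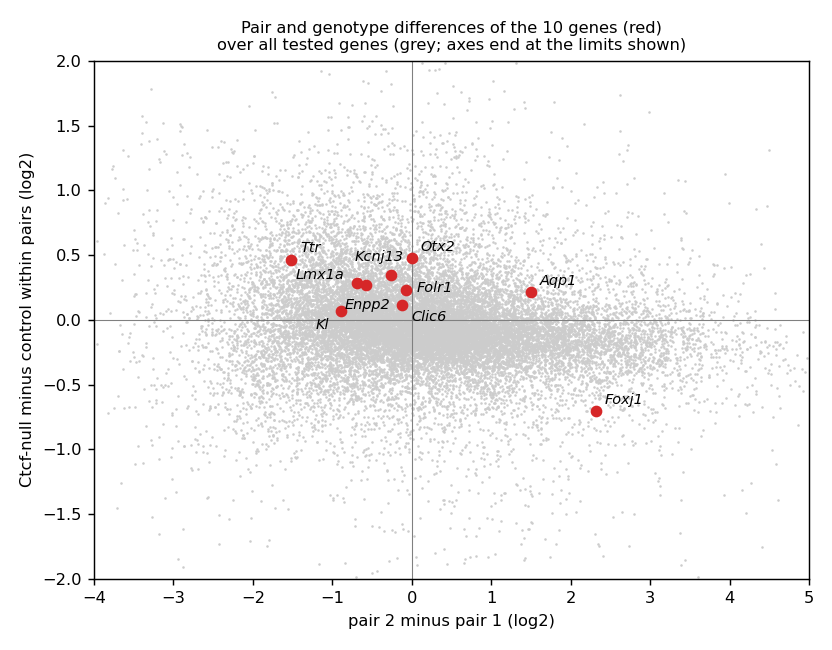
Each tested gene by its difference between pairs (x, pair 2 minus pair 1, log2) and between genotypes within pairs (y, Ctcf-null minus control, log2), with the 10 genes in red. Ttr lies at -1.52 and Foxj1 at 2.32 on the x axis, and Foxj1 is the red point below 0 on the y axis.

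The genes whose 4 values most resembled those of Ttr were taken from 12548 tested genes with a mean of at least 100 normalized counts, by the distance between log2 values centred on each gene's mean. The 5 nearest were Slc5a3 (a myo-inositol transporter), Frem2 (a basement membrane protein), Slco1a4 (an organic anion transporter), Mical2 (an actin-modifying enzyme) and Actn1 (an alpha-actinin). Their distances were 0.16 to 0.19. Slc5a3 went from 901 to 1283 normalized counts in pair 1 and from 291 to 406 in pair 2. The nearest of the other plexus genes was Lmx1a, at rank 826 and a distance of 0.84, and Otx2 was at rank 3531. The distance takes in the pair difference as well as the genotype difference. The 5 nearest had pair differences of -1.64 to -1.35, against -1.52 for Ttr. Otx2 had a genotype difference like that of Ttr, 0.48 against 0.47, but a pair difference of 0.00. With 4 libraries this likeness is a description.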

How the data were processed

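The authors deposited 1 table of normalized read counts, a signal per gene and library without division by gene length, and log2 fold changes per pair. The submitters' processing notes name STAR 2.5.3 and DESeq2, with mm10 as the build. How reads were assigned to genes, and with which annotation, is not stated in these sources. Values in each library were whole multiples of 1 step within 0.005 (100% of nonzero values, with an allowance for the error of the step), which gave whole reads.

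Genotype was compared within pairs, since the design text speaks of 2 pairs and the table gives a fold change for each. Same-numbered libraries correlated at r = 0.987 and 0.984 across genes and the 2 libraries of a genotype at 0.892 and 0.902, and deviations from the group means correlated at 0.926. The sources do not say what a pair shares. The test was limma 3.58.1 (R 4.3.3) with a trend on log2(value + 1) after filterByExpr, with pair and genotype as terms, 1 residual degree of freedom and 17.4 prior ones, two-sided, with Benjamini-Hochberg adjustment over all genes tested. The log2(value + 1) scale understates changes of low genes. On simulated counts (21632 genes, 200 changed) this fit recovered 63.8% of genes changed 1.5-fold, 88.1% at 2-fold and 98.4% at 4-fold, with 11 false calls, and without the block 0%. The simulation carried the pair difference of these libraries, so the 0% without the block was built in. Its smallest change was 1.5-fold, while the plexus genes that rose did so by 1.20-fold to 1.39-fold. These rates are a best case.

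Alternatives were edgeR 4.0.16 and DESeq2 1.42.0 on the recovered reads, other pseudocounts, filters and scalings, no block, and left-out libraries. Coordinates and exon lengths are from GENCODE M21 (GRCm38), matched for 48349 of 48795 identifiers. All 10 plexus genes are named. From other lists, the genes that passed are named, up to 4 per direction, or the 2 most abundant where none passed, although some genes of these lists are counted but not reported here by name, and except defining markers chosen after their values were seen. Members and lists were chosen with earlier results of these data known. Of the 31 multiciliated genes 30 were matched by symbol.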

Additional observations from a re-analysis of the deposited data

How the results depend on the processing

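Without the replicate block, the fit that ignores the pairing, 0 genes passed in limma, where 171 had an unadjusted p under 0.05, and 0 in edgeR (added after seeing the data), where 174 did, against 3016 in limma with the block. None of the 10 plexus genes passed in either, against 3 with the block. The SE of Ttr was then 0.78 in place of 0.06. DESeq2 with the block called 931 genes and 1 of the 10 (Ttr). Leaving out 1 library, fitted without the block, gave 0 to 2 calls over all genes and 0 to 0 of the 10. There the lone library of its genotype is assumed to vary like the others, and its pair sets the value: log2 differences with a library or a pair left out ranged from -0.33 to 1.26 for Ttr, -0.030 to 0.56 for Enpp2, 0.15 to 0.53 for Kcnj13, -0.073 to 0.30 for Clic6, -0.63 to 1.07 for Aqp1, -0.081 to 0.65 for Lmx1a, -1.95 to 0.54 for Foxj1 and -0.49 to 0.63 for Kl. Otx2 stayed between 0.43 and 0.52 and Folr1 between 0.18 and 0.28. A single pair has no test. With other pseudocounts, filters and scalings, and in edgeR with the block, Ttr, Otx2 and Enpp2 passed each time, and the other 7 did not. Aqp1, Foxj1 and Kl were not tested under the stricter filter. Foxj1 and Kl, with at most 47 reads in a library, are limited by depth.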
